A study of Mus with 15 samples.

Results

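The mitochondrial genome of the mouse is read here through the 37 rows of the count table that lie on chromosome MT, of 55573 rows in all. They are 2 ribosomal RNAs (rRNAs), 13 protein-coding genes and 22 transfer RNAs (tRNAs), and were taken by their chromosome alone. All 37 matched a RefSeq gene at exactly the same position, and the RefSeq symbols are used. RNA came from thymocytes of 6-week-old female C57Bl/6 x Foxp3-GFP mice, whose GFP reports FOXP3, the transcription factor of regulatory T cells (Tregs). All groups were live TCRb+ CD4+ CD8- CD73- cells, where TCRb is the T cell receptor beta chain and CD73 an enzyme of the cell surface. Conventional CD4 single-positive (CD4SP) cells lacked Bst2, CD25 and Foxp3. CD25+ progenitors lacked Bst2 and Foxp3 and carried CD25, a chain of the receptor for IL-2, and FOXP3lo progenitors lacked Bst2 and CD25 and had low Foxp3. Mature Tregs lacked Bst2 and had both CD25 and Foxp3. The Bst2+ gate took cells with Bst2, an interferon-induced membrane protein, that had CD25, Foxp3 or both. Each gate has 3 libraries, numbered 40, 42 and 43, from 3 biological replicates of a single sort. Whether each replicate is 1 animal or several pooled is not given in the labels. The p-values below test differences between gates against the spread among these libraries, which may not be the spread between animals.

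Both strands of the mitochondrial genome are transcribed into long precursors that are cut at the tRNAs lying between the larger genes, so RNAs that start from the same promoters reach their own levels through cleavage and decay. The 13 proteins are core subunits of the respiratory chain complexes I, III and IV and of the ATP synthase, and they are made on mitochondrial ribosomes built around the mitochondrial rRNAs, whose protein subunits, like nearly every other factor of mitochondrial gene expression, are encoded in the nucleus. Treg cells are known for a metabolism that leans on mitochondrial respiration.

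The libraries held 10816064 to 23758157 assigned counts, and 16069 genes passed the filter on low counts. Bst2+ replicates 40, 42 and 43 had a count for 14685, 16436 and 17198 genes, fewer than the 18355 to 23382 of the 12 other libraries. The Bst2+ libraries differed from the rest: with them the biological coefficient of variation over all genes was 0.420, and without them 0.184, and results between the other gates are given with and without them. The 8 T cell markers were all detected in every gate. In the Bst2+ libraries the 10 macrophage and dendritic cell markers, all detected, summed to 618.5 to 1020 CPM (the count of a gene over the TMM-scaled size of its library) and in the 12 others to at most 7.99. The 6 markers of CD8 and double-positive cells summed to 758 to 1293 CPM against 19.9 to 202, and the 8 B cell markers to 7.38 to 47.9 CPM against at most 3.13. The 7 plasmacytoid dendritic cell markers summed to 86.2 to 128.3 CPM in the Bst2+ gate against 15.3 to 71.9 in the others, with Klk1 and Cox6a2 at 0 in the Bst2+, conventional, FOXP3lo and mature gates. The part of these markers, of the cells they mark and of the smaller number of genes detected, in any result on the Bst2+ gate was not tested.

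Ribosomal RNA made up nearly all mitochondrial counts, and the Bst2+ gate held the highest share of it. The 2 rRNAs took 9.51%, 11.7% and 10.3% of the counts in conventional CD4SP replicates 40, 42 and 43. The same libraries of CD25+ progenitors gave 9.93%, 9.66% and 9.59%, and those of FOXP3lo progenitors 9.84%, 9.85% and 10.2%. Mature Tregs gave 11.2%, 10.5% and 10.4%, which overlapped the conventional range, and the 4 gates without Bst2 spanned 9.51% to 11.7%. The Bst2+ libraries gave 18.95%, 19.6% and 14.1%, all above the other 12. In bulk samples, more cells with a given RNA and more RNA per cell cannot be told apart. How far library preparation affected the rRNA counts was not tested.

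The protein-coding class separated the gates further. Its 13 genes took 0.7596%, 0.803% and 0.768% of the counts in conventional cells and 0.719%, 0.777% and 0.722% in FOXP3lo progenitors, ranges that overlapped. They took 0.994%, 0.981% and 0.8003% in CD25+ progenitors, where replicate 43 lay inside the conventional range. In mature Tregs they took 0.974%, 0.883% and 0.862%, above every conventional and every FOXP3lo library. The Bst2+ libraries again lay above all others, at 1.86%, 1.47% and 1.22%. The 22 tRNAs together received 97 to 298 counts per library. Their share was 0.00151% ± 0.000472 in conventional libraries, 0.00155% ± 6.77e-05 in CD25+ progenitors, 0.000713% ± 9.79e-05 in FOXP3lo progenitors, 0.000869% ± 0.000196 in mature Tregs and 0.00155% ± 0.000442 in the Bst2+ gate (SD, n = 3). Every FOXP3lo and every mature library had a smaller tRNA share than every conventional and CD25+ library. Sums over a class carry no test.

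**Figure D1:**
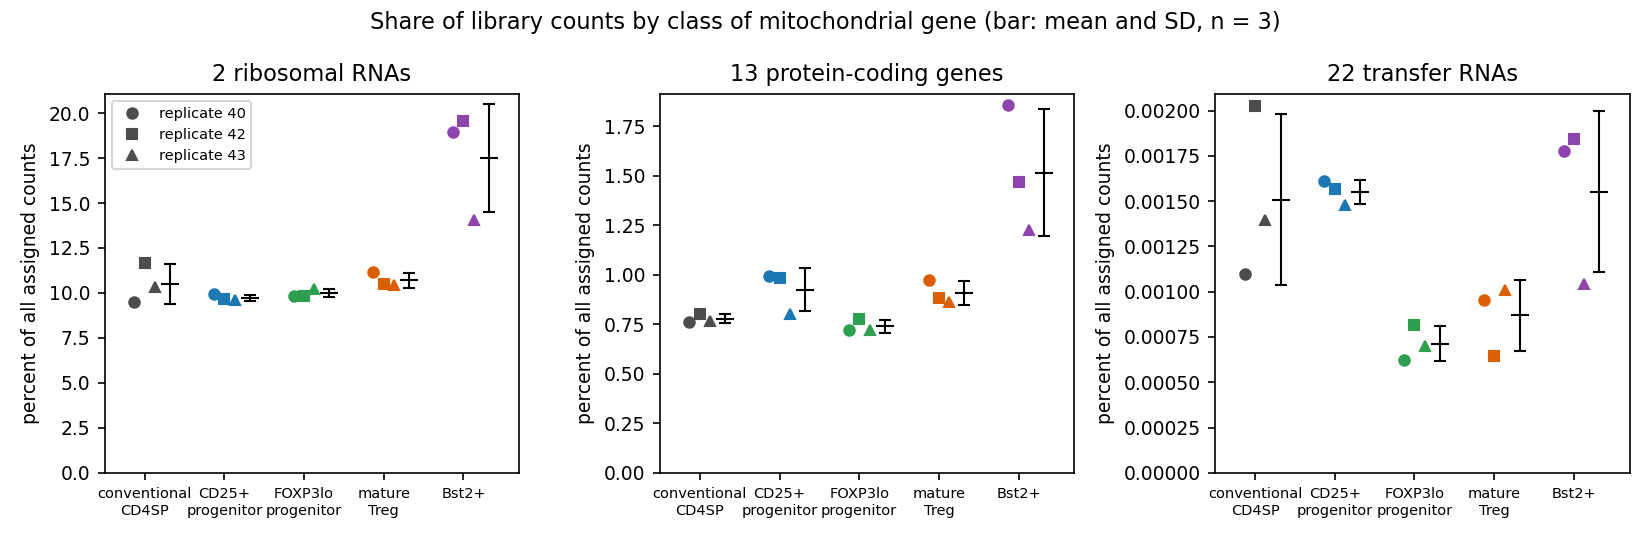
Share of all assigned counts (percent, y axis) taken by the 2 rRNAs, the 13 protein-coding genes and the 22 tRNAs in each gate; points are libraries 40, 42 and 43, and bars the mean and SD (n = 3). The Bst2+ libraries lie above all 12 others for rRNA (14.1% to 19.6% against 9.51% to 11.7%) and protein-coding counts (1.22% to 1.86% against 0.719% to 0.994%), while the tRNA shares overlap.

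Within the mitochondrial counts, rRNA held 90.8% to 93.5% in the 15 libraries. The number of rRNA counts per protein-coding count was 12.5, 14.5 and 13.4 in conventional cells and 13.7, 12.7 and 14.2 in FOXP3lo progenitors. It was 9.995, 9.84 and 11.99 in CD25+ progenitors and 11.5, 11.9 and 12.1 in mature Tregs. Both gates lay below every conventional and FOXP3lo library. The Bst2+ gate spread over 10.2, 13.3 and 11.5, so its larger shares of both classes came without a ratio outside the range of the other gates.

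The rRNAs of the small and the large ribosomal subunit did not keep the same proportion in every gate. mt-Rnr1 (ENSMUSG00000064337, 70 to 1024), the rRNA of the small subunit, averaged 43126 ± 6035, 37068 ± 1974, 41176 ± 1254 and 44399 ± 2150.0 CPM in conventional, CD25+, FOXP3lo and mature cells. mt-Rnr2 (ENSMUSG00000064339, 1094 to 2675), the rRNA of the large subunit, averaged 57753 ± 4123, 56205 ± 1549, 62037 ± 2329.9 and 66566 ± 3587 CPM in the same order (SD, n = 3). Conventional libraries had 1.44, 1.25 and 1.35 mt-Rnr2 counts for each mt-Rnr1 count, and mature Tregs 1.51, 1.51 and 1.49, with no overlap. The Bst2+ gate had 1.87, 1.57 and 1.67, against 1.47, 1.43 and 1.66 in CD25+ and 1.58, 1.398 and 1.55 in FOXP3lo progenitors.

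Along the genome (GRCm38; all positions on chromosome MT, plus strand except ND6), the 13 protein-coding genes fell into a set with abundant counts and a set with few. Per kb of gene length, averaged over the 15 libraries, CYTB (ENSMUSG00000064370, 14145 to 15288), cytochrome b of complex III, was the most abundant, at 2397 CPM per kb. Complex I is represented by ND1 to ND6 and ND4L. ND1 (ENSMUSG00000064341, 2751 to 3707) reached 1438, ND2 (ENSMUSG00000064345, 3914 to 4951) 769.8, ND4 (ENSMUSG00000064363, 10167 to 11544) 520.2, ND5 (ENSMUSG00000064367, 11742 to 13565) 858 and ND6 (ENSMUSG00000064368, 13552 to 14070), the sole protein-coding gene of the minus strand, 696 CPM per kb. COX1 (ENSMUSG00000064351, 5328 to 6872), the catalytic subunit of complex IV, reached 1404 CPM per kb. These 7 genes held 98.97% to 99.6% of the protein-coding counts of a library.

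The other 6 genes lie side by side between COX1 and ND4 and were recorded at 5.09 to 75.0 CPM per kb, though several encode subunits of the same complexes. They are COX2 (ENSMUSG00000064354, 7013 to 7696) and COX3 (ENSMUSG00000064358, 8607 to 9390) of complex IV, at 13.02 and 7.65 CPM per kb. They also include ATP8 (ENSMUSG00000064356, 7766 to 7969) and ATP6 (ENSMUSG00000064357, 7927 to 8607) of the ATP synthase, at 14.01 and 11.8, and ND3 (ENSMUSG00000064360, 9459 to 9806) and ND4L (ENSMUSG00000065947, 9877 to 10173) of complex I, at 75.02 and 5.09 CPM per kb. COX1 and COX2 are neighbours and subunits of the same enzyme, and stood on opposite sides of this divide.

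**Figure D2:**
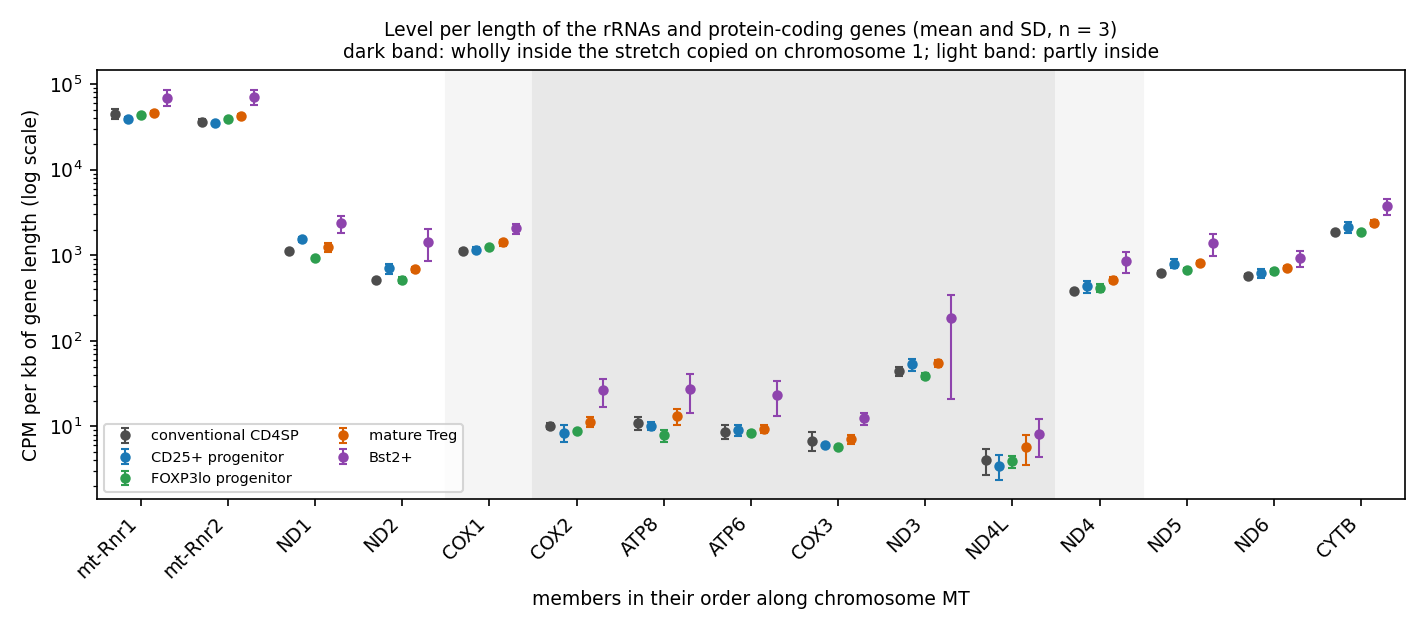
CPM per kb of gene length (log y axis) of the 2 rRNAs and 13 protein-coding genes in their order on chromosome MT; points are gate means and bars the SD (n = 3). The 6 genes in the dark band average 5.09 to 75.0 CPM per kb over the 15 libraries, and the 7 other protein-coding genes 520 to 2397, in every gate with the same separation.

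The same 6 genes are the ones that lie wholly inside a stretch of 4663 bases (6381 to 11043) mirrored by 7 rows of the count table on the minus strand of chromosome 1 (24611535 to 24616197). The 7 rows follow the order and spacing of COX1, COX2, ATP6, COX3, ND3, ND4L and ND4. The row facing ATP6 is Gm10925, for which RefSeq lists an ATP6 synonym, and the row facing ND4L is Gm10222; 5 of the rows have no RefSeq name here. Sequences were not compared, so the match rests on names, order and spacing. The header's counting options kept only read pairs with a mapping quality of at least 10, and reads that map equally well to both places get a lower quality. The part of the copy in the low values was not tested.

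COX1 has 492 of its 1545 bases inside the stretch and ND4 has 877 of 1378, and the table holds no position within a gene. The 5 tRNAs inside the stretch had at most 4 counts in a library. Of the tRNAs outside it, TrnH, TrnS2 and TrnL2, which follow ND4, had at most 1, TrnN 2 and TrnC 3. The highest library of the other tRNAs outside it held from 5 (TrnY) to 163 (TrnP) counts. The 7 copy rows summed to 618 to 1956 counts per library, at most 0.0181% of a library. COX2 had 80 to 265 counts and its facing row 95 to 300, COX3 had 62 to 142 and 84 to 182, and ATP6 had 80 to 244 and 183 to 1191. Bst2+ replicate 40 held the highest counts of COX2 and ATP6 and of both facing rows. The same library had 1352 counts of ND3 against 205 to 447 in the others, while the row facing ND3 had 5 to 16. Reads of these 6 genes could be split with the copy, so their values are uncertain.

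**Figure D3:**
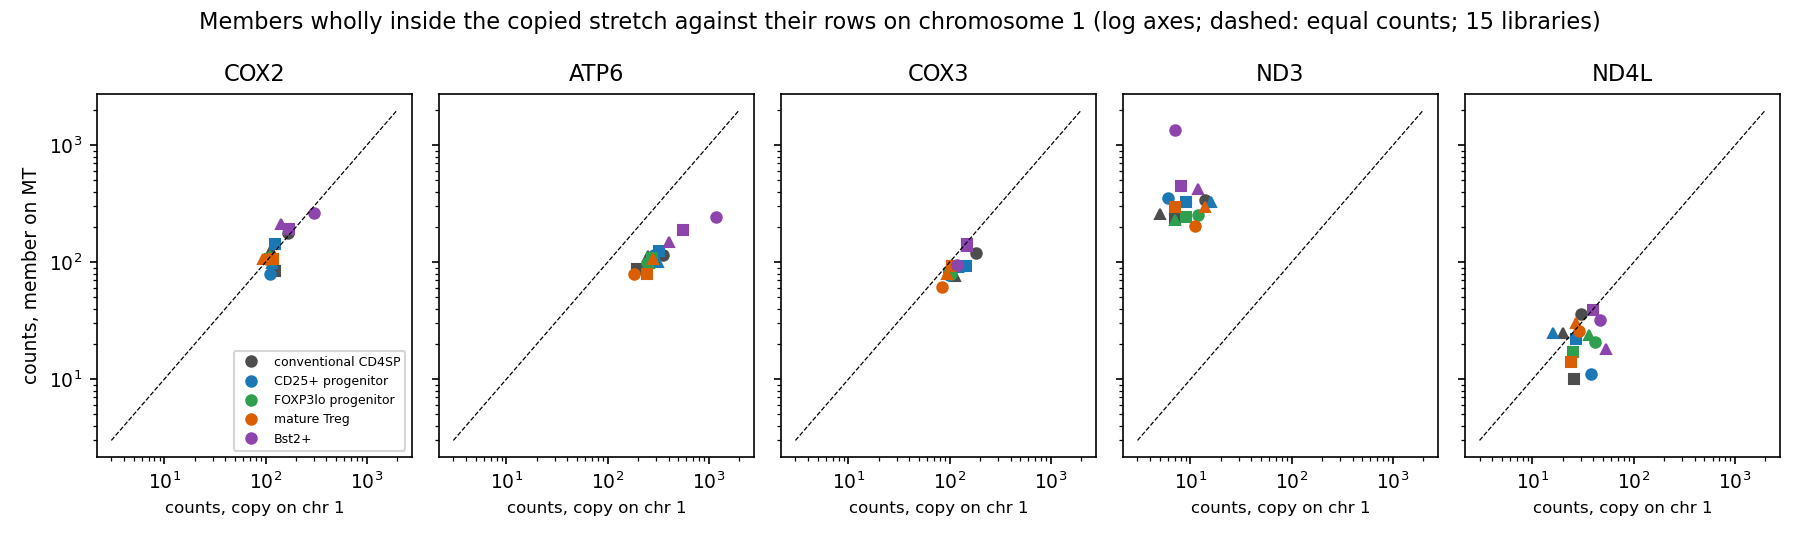
Counts of 5 mitochondrial genes wholly inside the copied stretch (log y axis) against the counts of their facing rows on chromosome 1 (log x axis) in 15 libraries; colours are gates, symbols replicates 40 (circle), 42 (square) and 43 (triangle), and the dashed line marks equal counts. COX2 and COX3 lie near the line, ATP6 below it, and ND3 far above it, with Bst2+ replicate 40 at 1352 ND3 counts.

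ND1 is a membrane subunit of complex I and the first protein-coding gene after the rRNAs. Its conventional libraries overlapped those of neither progenitor gate, but only the difference from CD25+ progenitors was called in the fit of all 15 libraries. ND1 measured 1031, 1101 and 1061 CPM in conventional replicates 40, 42 and 43, 1558, 1514 and 1363 in CD25+ progenitors and 892, 907 and 864 in FOXP3lo progenitors. Mature Tregs had 1362, 1129 and 1076 CPM. All 3 CD25+ libraries lay above the conventional ones, and all 3 FOXP3lo libraries below. By the edgeR test, the FOXP3lo difference from conventional cells was not called (log2 fold change −0.26 ± 0.125, adjusted p = 0.274). Relative to conventional cells ND1 was higher in CD25+ progenitors (log2 fold change 0.47 ± 0.125, adjusted p = 0.0181) and lower in FOXP3lo than in CD25+ progenitors (log2 fold change −0.74 ± 0.126, adjusted p = 0.000376), by the quasi-likelihood test of edgeR, adjusted by Benjamini-Hochberg over all 16069 genes. The second call held in each of its alternatives, listed with the processing. The first was lost without CD25+ replicate 40 or 42, without conventional replicate 40 or 43 (log2 fold changes 0.44 to 0.47) and when scaled to mitochondrial mRNA (0.23).

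COX1 followed another order. It measured 1696, 1814 and 1721 CPM in conventional replicates, 1882, 1853 and 1651 in CD25+ progenitors, 1927, 1964 and 1901 in FOXP3lo progenitors and 2368, 2159 and 2018 in mature Tregs. The mature libraries all lay above the conventional, CD25+ and FOXP3lo ones. COX1 was higher in mature Tregs than in conventional cells (log2 fold change 0.32 ± 0.0895, adjusted p = 0.0232) and than in CD25+ progenitors (log2 fold change 0.28 ± 0.0895, adjusted p = 0.0471). The first call was lost without conventional replicate 40, 42 or 43, mature replicate 40 or 42 or CD25+ replicate 40, and the difference was −0.0078, not called, when scaled to mitochondrial mRNA. The second was lost without any of the 12 libraries outside the Bst2+ gate taken singly (0.19 to 0.30), with library sizes that leave out chromosome MT (0.27) and when scaled to mitochondrial mRNA (0.19).

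Set against each other, the pair separated all 5 gates. This ratio, chosen after its values were seen and given with no test, does not depend on how the libraries are scaled, although COX1 lies in part inside the copied stretch. There were 0.608, 0.607 and 0.616 ND1 counts per COX1 count in conventional cells, 0.828, 0.817 and 0.826 in CD25+ progenitors and 0.463, 0.462 and 0.455 in FOXP3lo progenitors. Mature Tregs had 0.575, 0.523 and 0.533 and the Bst2+ gate 0.776, 0.696 and 0.636. No range overlapped another, and the SD within the gates of conventional, CD25+ and FOXP3lo cells was 0.00528, 0.00553 and 0.00449. As a share of the 13 protein-coding genes, ND1 took 14.3 ± 0.116% in the conventional gate, 16.7 ± 0.832% in CD25+ progenitors, 11.6 ± 0.2802% in FOXP3lo progenitors, 12.6 ± 0.607% in mature Tregs and 14.6 ± 0.578% in the Bst2+ gate (SD, n = 3). COX1 took 23.4 ± 0.228%, 20.3 ± 0.943%, 25.3 ± 0.698%, 23.2 ± 0.279% and 20.9 ± 2.23% in the same order.

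The shares of CYTB and ND6 moved unequally. CYTB took 28.5 ± 0.351%, 27.5 ± 1.28%, 27.6 ± 0.224%, 28.9 ± 0.1105% and 27.8 ± 0.722% of the 13 genes in the order conventional, CD25+, FOXP3lo, mature and Bst2+, and stayed within 26.0% to 29.0% in all 15 libraries. ND6, a complex I subunit read from the opposite strand, took 3.798, 3.94 and 4.15% in conventional replicates, 4.22, 4.499 and 4.57% in FOXP3lo progenitors and 3.13, 2.75 and 3.48% in the Bst2+ gate. Every FOXP3lo library lay above every conventional and every Bst2+ library. CD25+ progenitors (3.25, 3.88 and 3.81%) and mature Tregs (3.496, 4.24 and 4.03%) overlapped the conventional range.

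**Figure D4:**
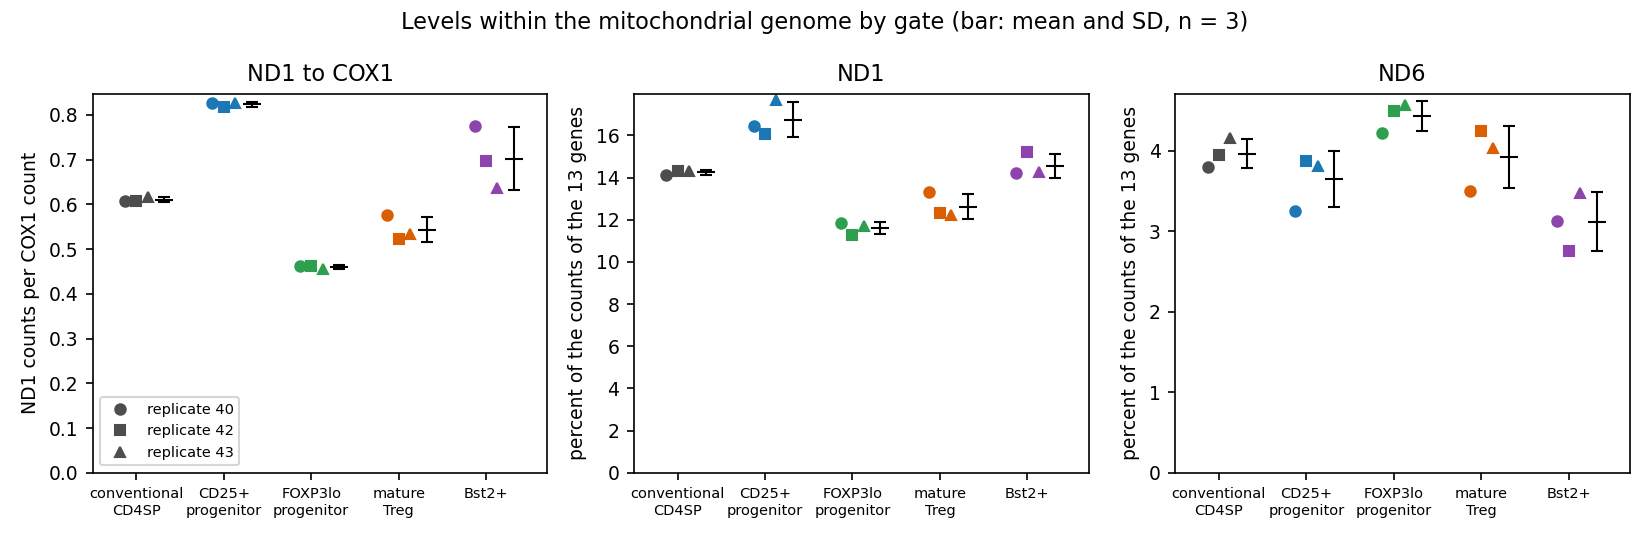
ND1 counts per COX1 count (left) and the percent of the counts of the 13 protein-coding genes taken by ND1 (middle) and ND6 (right) in each gate; points are libraries 40, 42 and 43, and bars the mean and SD (n = 3). The ND1 to COX1 ratio runs from 0.460 ± 0.00449 in FOXP3lo progenitors to 0.824 ± 0.00553 in CD25+ progenitors with no overlap between gates.

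Of the 37 members, 21 passed the filter on low counts: the 2 rRNAs, the 13 protein-coding genes and 6 tRNAs. Among the 4 gates without Bst2, few of the 21 were called at an adjusted p under 0.05. Between CD25+ progenitors and conventional cells 1 member (ND1, higher) was called, beside 11.6% of all genes tested. Between mature Tregs and conventional cells 1 member (COX1) was called (12.2% of all genes), and 3 (COX1, ND4 and CYTB, all higher) with the replicate number as a block. Between FOXP3lo and CD25+ progenitors it was 1 (ND1; 19.1%), and between mature Tregs and CD25+ progenitors 1 (COX1; 13%). Between FOXP3lo progenitors and conventional cells edgeR and DESeq2 both called 0 members (8.71% of all genes by edgeR), with 1 at an unadjusted p under 0.05. Between mature Tregs and FOXP3lo progenitors edgeR called 0 (4.72% of all genes), with 3 at an unadjusted p under 0.05, and DESeq2 and the replicate block each called 1 (ND1, higher in mature Tregs). As 1 of 21 members or fewer, the counts of the edgeR fit without the block are near or below the share of all genes called in each comparison. Comparisons with the same gate share its libraries.

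The spread in this fit is shared with the Bst2+ libraries, and leaving those out raised both the members called and the share of all genes called. CD25+ progenitors against conventional cells then gave 4 members: ND1 (0.48 on the log2 scale), ND2 (0.46) and ND5 (0.35), all of complex I, were higher and mt-Rnr1 (−0.22) lower, beside 29% of all genes. Mature Tregs against conventional cells gave 8, with mt-Rnr2, ND2, COX1, ND4, ND5, ND6 and CYTB higher and TrnP lower (30.4% of all genes). FOXP3lo progenitors against conventional cells gave 3, with ND6 higher and ND1 and TrnP lower (25.1%). FOXP3lo against CD25+ progenitors gave 7, with mt-Rnr2 higher and TrnL1, ND1, ND2, ND3, ND5 and CYTB lower (39.5%). Mature Tregs against CD25+ progenitors gave 6, with mt-Rnr1, mt-Rnr2, COX1 and ND6 higher and ND1 and TrnP lower (32.7%).

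Between mature Tregs and FOXP3lo progenitors the calls all had the same direction. Without the Bst2+ libraries 7 members were called, all protein-coding and all higher in mature Tregs: ND1, ND2, COX1, ND3, ND4, ND5 and CYTB, beside 18.7% of all genes in either direction and 9.37% higher. In the fit of all 15 libraries the log2 fold changes of the 13 protein-coding genes ran from 0.11 to 0.74 with a median of 0.34, against a median of 0 over all genes. For 10 of the 13 every mature library lay above every FOXP3lo library, as did 15.4% of all genes. These 10 include COX2, ATP8, COX3 and ND3 of the copied stretch, whose values are uncertain. Scaled to the summed counts of the 13 genes, no member was called in this comparison (3.29% of all genes), and the median over all genes moved to −0.29.

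**Figure D5:**
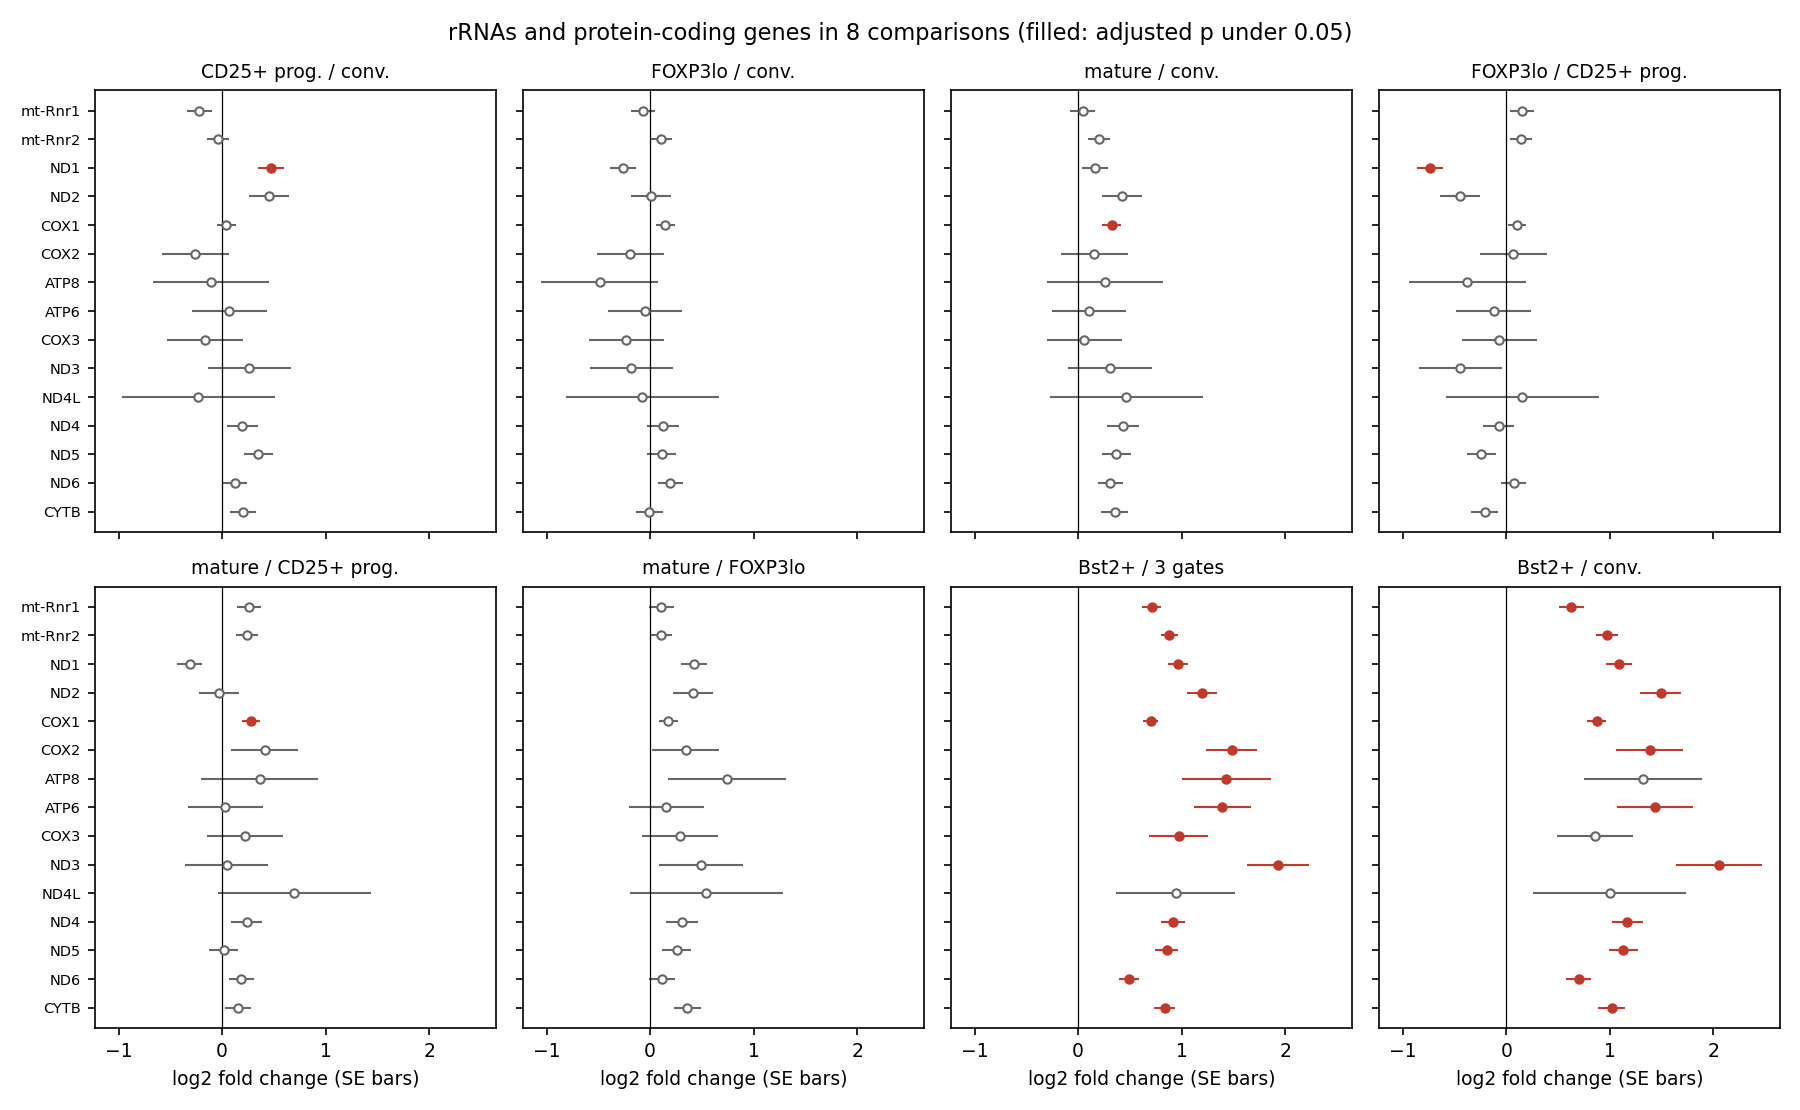
Log2 fold change (x axis, bars are the SE) of the 2 rRNAs and 13 protein-coding genes in 8 comparisons, each titled as first gate over second; filled points passed an adjusted p under 0.05 in the fit of all 15 libraries. Calls are ND1 or COX1 in the comparisons without Bst2+, and 14 and 12 of these 15 members against the average of 3 gates and against conventional cells.

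The comparisons with the Bst2+ gate gave the most member calls, with the markers of other cells given above moving alongside. Against the average of CD25+ progenitors, FOXP3lo progenitors and mature Tregs, 17 of the 21 members were called, 16 higher and 1 lower, where 39.1% of all genes were called, 19.3% higher and 19.8% lower. Both rRNAs and 12 of the 13 protein-coding genes were among the higher ones, with ND4L not called (log2 fold change 0.94 ± 0.575, adjusted p = 0.209). The median log2 fold change of the 13 was 0.96, against −0.025 over all genes. For 13 of the 21 members every Bst2+ library lay above the 9 libraries compared, as did 7.65% of all genes.

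Single members give the sizes. CYTB measured 5197, 4348 and 3378 CPM in Bst2+ replicates 40, 42 and 43 and 2005 to 2967 in the 12 other libraries (log2 fold change 0.84 ± 0.0999, adjusted p = 6.46e-06). ND2, a complex I subunit, measured 2159, 1363 and 955 against 484 to 801 CPM (log2 fold change 1.20 ± 0.149, adjusted p = 9.97e-06). Replicate 40 was the highest and replicate 43 the lowest of the Bst2+ libraries for both genes, and each stayed above the other gates. mt-Rnr2 measured 127995, 124756 and 86676 CPM (log2 fold change 0.88 ± 0.0823, adjusted p = 4.54e-07) and mt-Rnr1 68479, 79699 and 51896 CPM (log2 fold change 0.71 ± 0.0927, adjusted p = 1.67e-05). ND6 differed least among the called protein-coding genes, at 603, 422 and 419 against 277 to 389 CPM (log2 fold change 0.49 ± 0.0977, adjusted p = 0.000828), and at 0.29 without Bst2+ replicate 40. ND3, of the copied stretch, measured 129.6, 36.1 and 26.6 against 12.6 to 21.6 CPM (log2 fold change 1.93 ± 0.299, adjusted p = 8.79e-05), and its log2 fold change was 0.89 without replicate 40, below the 1.15 of COX2 in the same fit. The call of ATP8 (log2 fold change 1.43) was lost without that library, at 0.9996.

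Against conventional cells, 14 members were called in the Bst2+ gate, 13 higher and 1 lower, beside 29.1% of all genes (13.5% higher and 15.6% lower). The higher ones were both rRNAs, 10 protein-coding genes and TrnW. ND1 gave a log2 fold change of 1.09 ± 0.126 (adjusted p = 1.16e-05), COX1 0.87 ± 0.0901 (adjusted p = 3.71e-06) and ND5, a large complex I subunit, 1.13 ± 0.141 (adjusted p = 2.26e-05). ATP8, COX3 and ND4L were not called. ND3 gave 2.05 ± 0.411, and 1.02 without Bst2+ replicate 40. The spread within the Bst2+ gate was wider than in the others: over the 7 abundant protein-coding genes the coefficient of variation was 13.6% to 41.0% there and at most 15.9% elsewhere, while the fit uses a spread shared by all gates.

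A scaling to the members' own sum gives differences relative to it, and by construction places the members near 0. Scaled to the summed counts of the 13 protein-coding genes, the median of all genes moved to −0.83 against the 3 gates and −1.03 against conventional cells. Relative to the rest of the mitochondrial mRNA, 5 members were then called against the 3 gates (58.2% of all genes), with ND2, COX2 and ND3 higher and ND6 and TrnT lower. Against conventional cells it was 6 (57.3% of all genes), with ND2 and ND3 higher and mt-Rnr1, TrnL1, ND6 and TrnT lower. ND2 was thus called higher in the Bst2+ gate under both scalings, and ND6 was higher by library size and lower relative to the other mitochondrial mRNA. As a share of the 13 genes, ND2 took 11.2, 8.90 and 7.93% in Bst2+ replicates 40, 42 and 43. CD25+ progenitors gave 8.46, 8.21 and 7.89%, which overlapped. The share of ND3 was 0.673, 0.236 and 0.221% in the Bst2+ gate and 0.228, 0.175 and 0.224% in CD25+ progenitors, again with overlap. COX1 and CYTB were not called in either direction under this scaling.

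The tRNAs were sparsely counted. They are 59 to 75 bases long, and 16 of the 22 failed the filter, with 1 to 54 counts over all 15 libraries and 9 of them under 10. The 6 that passed, TrnV, TrnL1, TrnQ, TrnW, TrnT and TrnP (the tRNAs of valine, a leucine, glutamine, tryptophan, threonine and proline), held 90.3% of the 2934 tRNA counts. A read pair that overlaps several rows was not assigned under the header's options, and how far this lowers the tRNA counts was not tested. TrnV, between the rRNAs, had 0 to 22 counts per library and TrnQ, on the minus strand, 0 to 66, and neither was called in any of the 8 comparisons.

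TrnP (ENSMUSG00000064372, 15356 to 15422, minus strand) was the most counted, at 30 to 163 counts per library. It measured 4.73, 12.1 and 6.09 CPM in conventional cells, 4.56, 7.37 and 4.55 in CD25+ and 2.07, 4.75 and 3.13 in FOXP3lo progenitors, 2.498, 2.28 and 2.98 in mature Tregs and 12.2, 9.46 and 3.03 in the Bst2+ gate. The mature libraries all lay below the conventional ones, a difference that was not called (log2 fold change −1.56 ± 0.558, adjusted p = 0.0858). TrnP was higher in the Bst2+ gate than in the average of 3 gates (log2 fold change 1.18 ± 0.42, adjusted p = 0.0347), with overlapping libraries, and that call was lost without any one of Bst2+ replicates 40 and 42, CD25+ 40 and 43, FOXP3lo 40 and 43 and mature 40 and 42 (log2 fold change 0.77 without Bst2+ replicate 40).

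TrnL1 (ENSMUSG00000064340, 2676 to 2750) sits between mt-Rnr2 and ND1, where it is cut from their shared precursor. It had 20 to 87 counts per library and measured 2.75, 2.905 and 3.01 CPM in conventional, 4.56, 4.39 and 3.44 in CD25+ and 1.67, 1.397 and 1.21 in FOXP3lo progenitors. As for ND1, the CD25+ libraries were above the conventional ones and the FOXP3lo libraries below. For ND1 only the difference of the CD25+ gate was called in the fit of all 15 libraries. For TrnL1 neither difference was called (log2 fold change 0.51 ± 0.561, adjusted p = 0.749, and log2 fold change −1.02 ± 0.571, adjusted p = 0.389). The difference between the progenitors was not called (log2 fold change −1.53 ± 0.576, adjusted p = 0.07704), and it was called by DESeq2 and without the Bst2+ libraries. For each 1000 ND1 counts there were 2.72 ± 0.1096 TrnL1 counts in the conventional gate, 2.78 ± 0.225 in CD25+ progenitors, 1.603 ± 0.245 in FOXP3lo progenitors, 2.11 ± 0.446 in mature Tregs and 0.895 ± 0.171 in the Bst2+ gate (SD, n = 3).

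TrnT (ENSMUSG00000064371, 15289 to 15355) had 0 counts in all 3 Bst2+ libraries and 41 over the conventional, 23 over the CD25+, 8 over the FOXP3lo and 20 over the mature libraries. Folds were taken with a floor of 3 counts over the Bst2+ gate and the observed counts of the other gates as exact. On that basis its level was at least 9.54-fold lower than in conventional cells and 5.40-fold lower than in CD25+ progenitors. It was at least 6.15-fold lower than in mature Tregs and 1.93-fold lower than in FOXP3lo progenitors, whose 8 counts carry a counting error of their own. TrnT was the member called lower in both Bst2+ comparisons (adjusted p = 0.0189 and 0.0111). TrnW, called higher in the Bst2+ gate (log2 fold change 2.13 ± 0.759, adjusted p = 0.0344; log2 fold change 3.46 ± 1.12, adjusted p = 0.0281 against conventional cells), had 2 to 38 counts per library. The first of these calls was lost without Bst2+ replicate 40 or 42, CD25+ 42 or 43, FOXP3lo 40 or 42, conventional 40, 42 or 43, or mature 40 or 43, and the second without Bst2+ replicate 40 or conventional 40, 42 or 43, and both ended under the replicate block, at log2 fold changes of 2.08 and 3.41. The floor for TrnT covers counting error in the Bst2+ gate alone.

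The minus strand gave few counts in every gate. It carries ND6 and 8 tRNAs and gave 0.283 ± 0.0151% of mitochondrial counts in conventional cells and 0.255 ± 0.0508% in the Bst2+ gate, with 0.196% to 0.366% over all libraries. Among tRNA counts alone, the minus strand held 47.0% to 78.5%.

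The nuclear genes that copy, cut, modify and translate mitochondrial RNA were read from the same fit, in 6 lists with 155 of 162 entries matched and 154 tested. The lists are given by their counts, with no test of their own. Of the 68 tested mitochondrial ribosomal proteins, 21 were called between FOXP3lo and CD25+ progenitors, all lower in FOXP3lo progenitors, with a median log2 fold change of −0.55 against 0.0072 over all genes (9.93% of all genes were lower). Mrps27, of the small subunit, averaged 7.46 ± 1.09 against 18.1 ± 1.46 CPM (log2 fold change −1.28 ± 0.242, adjusted p = 0.000938), and Mrpl19, of the large subunit, 15.5 ± 3.07 against 32.3 ± 2.54 CPM (log2 fold change −1.06 ± 0.215, adjusted p = 0.001695). In the Bst2+ gate, 33 were higher and 2 lower than in the average of the 3 gates, with a median of 0.51 (19.3% of all genes were higher), among them Mrpl42 at 70.6 ± 25.8 against 31.3 ± 8.18 CPM (log2 fold change 1.21 ± 0.158, adjusted p = 1.56e-05) and Mrpl58 at 55.1 ± 3.598 against 29.7 ± 3.06 CPM (log2 fold change 0.90 ± 0.1199, adjusted p = 2.14e-05). Mrpl36 and Mrpl37 were the 2 lower ones. In the other comparisons among the 4 gates, 1 to 5 of the 68 were called, beside 4.72% to 13% of all genes.

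Among 23 genes of RNA processing and stability, Lrpprc, which binds and stabilises mitochondrial mRNA, differed between the gates. CD25+ progenitors had more than conventional cells, 144 ± 2.91 against 92.1 ± 5.17 CPM (log2 fold change 0.65 ± 0.102, adjusted p = 0.000285), and FOXP3lo progenitors had less than CD25+ progenitors, 65.1 ± 5.08 against 144 ± 2.91 CPM (log2 fold change −1.15 ± 0.103, adjusted p = 4.21e-07). Fastkd2, needed for the large mitochondrial ribosomal subunit, was lower in FOXP3lo than in CD25+ progenitors, 7.06 ± 1.91 against 18.9 ± 2.14 CPM (log2 fold change −1.42 ± 0.255, adjusted p = 0.000616). Grsf1, of the mitochondrial RNA granules, was higher in every other gate than in conventional cells. In mature Tregs it averaged 112 ± 15.5 against 51.3 ± 3.94 CPM (log2 fold change 1.12 ± 0.132, adjusted p = 1.23e-05). In the Bst2+ gate its log2 fold change against conventional cells was 0.48 ± 0.131 (adjusted p = 0.011). Rexo2, an exonuclease that removes short RNAs, was higher in mature Tregs than in FOXP3lo progenitors, 64.3 ± 4.91 against 28.8 ± 0.706 CPM (log2 fold change 1.16 ± 0.183, adjusted p = 0.000884). Of the 23, 2 were called between CD25+ progenitors and conventional cells, both higher (11.6% of all genes were called). In FOXP3lo against CD25+ progenitors 1 was higher and 5 lower (19.1% of all genes were called).

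Of 20 genes of transcription and genome maintenance, 2 were higher and 4 lower in the Bst2+ gate than in the 3 gates, where 19.3% of all genes were higher and 19.8% lower. Tfam, which packages mitochondrial DNA and starts its transcription, averaged 71.8 ± 11.3 against 50.6 ± 4.29 CPM (log2 fold change 0.51 ± 0.105, adjusted p = 0.00113), and Ssbp1, the single-strand binding protein, 67.01 ± 19.1 against 46.01 ± 10.7 CPM (log2 fold change 0.57 ± 0.156, adjusted p = 0.00876). Polg, the catalytic subunit of the mitochondrial DNA polymerase, was lower, 83.4 ± 29.8 against 139 ± 16.8 CPM (log2 fold change −0.73 ± 0.142, adjusted p = 0.000706). Between FOXP3lo and CD25+ progenitors 2 of the 20 were higher and 2 lower (19.1% of all genes were called). Twnk, the replicative helicase, was lower in FOXP3lo than in CD25+ progenitors, 14.7 ± 2.31 against 27.4 ± 0.575 CPM (log2 fold change −0.90 ± 0.213, adjusted p = 0.00572). Tk2 (log2 fold change 0.86 ± 0.234, adjusted p = 0.0144) and Rrm2b (log2 fold change 0.84 ± 0.259, adjusted p = 0.0295) were higher.

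Of 13 tRNA modification genes, 2 were higher and 2 lower in the Bst2+ gate than in the 3 gates (39.1% of all genes were called). Pus1, a pseudouridine synthase, was lower in FOXP3lo progenitors than in CD25+ progenitors, 12.8 ± 1.196 against 28.2 ± 1.53 CPM (log2 fold change −1.14 ± 0.2095, adjusted p = 0.000744). Of 20 ribosome assembly genes 3 were lower in the same comparison, as were 9.93% of all genes, among them Mrm3, an rRNA methyltransferase, 3.14 ± 1.01 against 10.6 ± 0.777 CPM (log2 fold change −1.76 ± 0.474, adjusted p = 0.0137), and Dhx30, an RNA helicase, 93.7 ± 1.46 against 128 ± 5.83 CPM (log2 fold change −0.45 ± 0.129, adjusted p = 0.0198). Of 10 biogenesis regulators, Myc was higher in mature Tregs than in FOXP3lo progenitors, 107 ± 14.3 against 54.7 ± 1.64 CPM (log2 fold change 0.97 ± 0.127, adjusted p = 0.000154), and Pprc1, a coactivator of the PGC-1 family, was lower in FOXP3lo than in CD25+ progenitors, 47.95 ± 7.92 against 96.6 ± 5.5 CPM (log2 fold change −1.01 ± 0.193, adjusted p = 0.00102). Of the 10, 2 were higher and 3 lower in the Bst2+ gate than in the 3 gates (39.1% of all genes were called), and 2 higher and 2 lower than in conventional cells (29.1%). In the Bst2+ gate Esrra, a nuclear receptor of respiratory genes, was lower than in the 3 gates, 6.48 ± 3.46 against 19.4 ± 3.62 CPM (log2 fold change −1.56 ± 0.2703, adjusted p = 0.000249), and Sirt3, the mitochondrial deacetylase, higher, 11.5 ± 3.85 against 3.93 ± 1.39 CPM (log2 fold change 1.59 ± 0.364, adjusted p = 0.00246).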

How the data were processed

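The authors deposited 1 table of unnormalised counts per gene (read pairs), with gene lengths in bases. Per the labels' protocols, thymus was mechanically dissociated, depleted of CD8-bearing cells and sorted, and libraries came from the SMARTer Pico v2 kit, which keeps the strand and starts from total RNA. Per the file headers, featureCounts 1.6.2 counted on strand setting 2 the pairs that had both ends aligned at mapping quality 10 or more, on Ensembl 97 (GRCm38). The submitters' processing notes name Trimmomatic 0.33, HISAT2 2.1.0 and featureCounts 1.4.6. The table has no symbols, so rows were named by position from RefSeq (GRCm38.p6), members exactly and other genes at a Jaccard overlap of at least 0.5 with a margin of 0.2 (33941 of 55573 rows). No genome sequence was used here.

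The test was that of edgeR 4.0.16 in R 4.3.3 (robust quasi-likelihood, filterByExpr, TMM, 5 group means over 15 libraries, adjusted p under 0.05). The code was first run on simulated counts with known fold changes. Members, lists and comparisons were chosen with earlier results of these data known. All rRNAs and protein-coding genes, every tRNA past the filter and, per nuclear list, comparison and direction, up to 2 called genes with the smallest adjusted p could be named. Alternatives were DESeq2 1.42.0, RLE factors, no filter, at least 2 CPM in 3 libraries, the replicate block, only the groups compared, no Bst2+ libraries, library sizes without chromosome MT, scaling to mitochondrial mRNA, other denominators for shares, and each library left out.

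Replicate numbers were taken as shared biological replicates, from the series design. Same-numbered libraries deviated together little (correlations across genes −0.0160 to 0.0423, mean 0.0107, 30 pairs). Other pairs gave −0.0444 to 0.0349 (mean −0.0053, 60 pairs).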

Additional observations from a re-analysis of the deposited data

How the results depend on the processing

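Single-member calls kept their direction and their side of the threshold in 715 of 804 combinations of call and alternative, were lost in 78 and changed sign in 11. All 11 sign changes came from scaling to mitochondrial mRNA, which shifts all genes alike and by construction places the members near 0, and 8 of the 11 were not called under it, so the tally is no measure of stability: against the 3 gates, in the Bst2+ gate, mt-Rnr1 (−0.12), COX1 (−0.13), ND5 (−0.0092), ND6 (−0.35) and CYTB (−0.0096); against conventional cells, mt-Rnr1 (−0.40), mt-Rnr2 (−0.076), COX1 (−0.16), ND6 (−0.35) and CYTB (−0.034); and COX1 in mature Tregs against conventional cells (−0.0078). This scaling gave 5 and 6 member calls in the Bst2+ comparisons in place of 17 and 14.

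Counts of member calls among the 4 gates without Bst2 rose when the Bst2+ libraries, whose spread enters the fit of all 15, were left out. CD25+ progenitors against conventional cells gave 4 calls without them, 3 with the groups compared only and 4 with no filter. FOXP3lo progenitors against conventional cells gave 3 and 3 (without Bst2+, groups only). Mature Tregs against conventional cells gave 8 and 7, with 6 by no filter and 3 by DESeq2. FOXP3lo against CD25+ progenitors gave 7 and 7, with 5 by no filter and 2 by DESeq2. Mature Tregs against CD25+ progenitors gave 6 and 6, with 4 by no filter and 0 with library sizes that leave out chromosome MT. Mature Tregs against FOXP3lo progenitors gave 7 and 7, with 3 by no filter and 1 by DESeq2. Bst2+ against conventional cells gave 8 with the groups only. Without the filter, edgeR shrank every gene fully to the common trend. The replicate block gave 3 calls for mature Tregs against conventional cells and 1 against FOXP3lo progenitors, ended the calls of TrnW and moved no other count by over 1.5 times.

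Leaving out each library gave 14 to 18 calls (Bst2+ against 3 gates), 13 to 17 (Bst2+ against conventional), 0 to 3 (CD25+ against conventional), 0 to 0 (FOXP3lo against conventional), 0 to 7 (mature against conventional), 1 to 4 (FOXP3lo against CD25+), 0 to 4 (mature against CD25+) and 0 to 3 (mature against FOXP3lo). The highest counts among the 4 gates came without Bst2+ replicate 40 (3, 7, 4, 2 and 3 calls in the order of the comparisons that moved) or replicate 43 (3, 7, 3, 4 and 2), and FOXP3lo against CD25+ gave 2 without Bst2+ replicate 42. Mature Tregs against conventional cells gave 0 without CD25+ replicate 40, any conventional replicate, or mature replicate 40 or 42.

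As shares of counts without mitochondrial rRNA, rRNA came to 11.7% (conventional), 10.8% (CD25+), 11.1% (FOXP3lo), 11.99% (mature) and 21.4% (Bst2+), protein-coding genes to 0.868%, 0.821%, 1.02% and 1.85% (conventional, FOXP3lo, mature, Bst2+) and tRNAs to 0.00172% (CD25+). Without the 20 most abundant nuclear genes, rRNA came to 11.96%, 11.3%, 11.6% and 12.4% (conventional, CD25+, FOXP3lo, mature), protein-coding genes to 0.886%, 1.07%, 0.858% and 1.05%, and tRNAs to 0.0018% (CD25+) and 0.000828% (FOXP3lo). Where not stated, the cause of a change was not tested. The tRNAs and the 6 genes inside the copied stretch have few counts, which limits their precision.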
